A study of Mus musculus with 1 sample.

Results

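Claudins and other tight junction genes were described in 1 single-cell RNA library of mouse stomach organoids, with 9 genes chosen by name among 32285 gene rows of the deposited matrix. The genes are Cldn2, Cldn3, Cldn4, Cldn7, Cldn18 and Cldn23, which encode claudins, and Ocln, Tjp1 and F11r. Organoids are balls of epithelium grown in a gel. This culture was wild type, per its genotype label, and no treatment is named for it. Its cells were released with 0.05% trypsin-EDTA for 30 min on day 7. Mutant organoids named in the series text were not analysed here.

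Tight junctions close the space between neighbouring epithelial cells near their luminal side. Claudins span the membrane and form the strands of the junction, and the set of claudins in a cell sets which ions pass between cells. Some claudins seal the space, while claudin-2 forms a channel for small cations and water. Occludin, the product of Ocln, lies in the same strands, JAM-A, the product of F11r, is an immunoglobulin-like adhesion protein at the junction, and ZO-1, the product of Tjp1, is the scaffold that binds claudin tails and ties the strands to actin. In the stomach, claudin-18 is known as the claudin of the acid-exposed epithelium.

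Counts were of unique molecular identifiers (UMIs), which count captured RNA molecules at the 3' end, so levels were not divided by gene length. Of 1991 barcodes, 1892 passed a minimum of 500 detected genes and a ceiling of 20% mitochondrial UMIs, with a median of 8512.5 gene UMIs (range 890 to 47183). Levels are UMIs of a gene per 1000000 gene UMIs (CPM). With 1 library there was no replicate, so no difference was tested, and each interval is at 95% and covers counting error only. The epithelial gene Epcam had a UMI in 96.6% of cells and Krt8 in 97.9%, while 5 of 13 markers of immune, endothelial, fibroblast and neural cells were at 0. The 13 summed to 16.3 CPM in 1 cluster of cells (cluster 1) and to between 0.40 and 5.32 CPM in the others. Of the gastric classes, the 4 pit cell markers summed to 424 CPM, whereas 2 of 3 parietal and 2 of 4 chief cell markers were at 0.

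The genes lie on separate chromosomes except Cldn3 and Cldn4, which are neighbours on chromosome 5 of GRCm38 with 39279 bases and no annotated gene between them. Both have 1 exon. Cldn4 spans chr5:134945119-134946934 on the minus strand and Cldn3 chr5:134986214-134987472 on the plus strand. Cldn18 (chr9:99689461-99717267, minus strand, 5 exons) has start sites 7204 bases apart, which are known for a lung form and a stomach form of the protein. The transcripts share their 3' part, so the counts do not tell the forms apart. Cldn2 lies at chrX:139800828-139811386 (plus strand), Cldn7 at chr11:69964779-69967885 (plus), Cldn23 at chr8:35824712-35826559 (minus), Ocln at chr13:100496507-100552718 (minus), Tjp1 at chr7:65296165-65527781 (minus) and F11r at chr1:171437535-171464603 (plus). The 250 bases before these start sites, from RefSeq with build GRCm38.p6, are shown because these 4 claudins include the neighbours and the 3 genes with the widest range between clusters of cells. RefSeq windows were found for 8 of the 9 genes. Capitals mark matches on either strand to the TATA box TATAAA, the GC box GGGCGG, the E-box CAGGTG (bound by Snail and Zeb repressors), the grainyhead-like site AACCGGTT and the HNF1 site.
Cldn3, chr5:134985964-134986213, plus strand: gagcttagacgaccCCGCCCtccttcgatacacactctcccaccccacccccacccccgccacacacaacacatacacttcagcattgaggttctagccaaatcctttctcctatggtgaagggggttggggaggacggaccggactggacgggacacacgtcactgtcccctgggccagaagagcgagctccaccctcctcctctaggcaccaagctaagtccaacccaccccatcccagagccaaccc
Cldn4, chr5:134946935-134947184, minus strand: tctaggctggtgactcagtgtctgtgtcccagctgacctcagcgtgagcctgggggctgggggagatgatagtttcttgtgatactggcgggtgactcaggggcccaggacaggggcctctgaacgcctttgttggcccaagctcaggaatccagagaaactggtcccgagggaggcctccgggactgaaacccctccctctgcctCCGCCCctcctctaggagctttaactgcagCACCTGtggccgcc
Cldn2, chrX:139800558-139800807, plus strand: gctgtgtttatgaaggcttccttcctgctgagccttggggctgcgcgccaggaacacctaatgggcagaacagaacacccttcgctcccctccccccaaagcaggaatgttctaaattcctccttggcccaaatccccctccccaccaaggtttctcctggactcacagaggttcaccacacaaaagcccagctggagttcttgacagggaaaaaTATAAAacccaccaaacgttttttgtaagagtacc
Cldn18, upstream start, chr9:99717268-99717517, minus strand: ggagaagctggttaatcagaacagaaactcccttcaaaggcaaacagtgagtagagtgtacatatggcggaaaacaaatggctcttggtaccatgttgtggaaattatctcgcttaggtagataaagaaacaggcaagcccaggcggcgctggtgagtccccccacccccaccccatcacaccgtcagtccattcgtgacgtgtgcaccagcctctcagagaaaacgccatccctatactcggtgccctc
Cldn18, downstream start, chr9:99710064-99710313, minus strand: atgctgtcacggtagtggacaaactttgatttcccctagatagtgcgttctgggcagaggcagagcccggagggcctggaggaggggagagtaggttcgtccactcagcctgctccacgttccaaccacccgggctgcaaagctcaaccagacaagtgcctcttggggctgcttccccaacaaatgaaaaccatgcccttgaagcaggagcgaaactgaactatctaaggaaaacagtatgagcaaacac
Cldn2 had the letters TATAAA starting 35 bases before its start site, a word that 12.4% of 32851 promoter windows of this length hold. Cldn3 and Cldn4 each had 1 GGGCGG match, which 32.7% of windows hold. Cldn4 also had 1 CAGGTG match, 14 bases before the start, which 17.2% of windows hold. Neither window of Cldn18 held any of the 5 words. The grainyhead-like and HNF1 words were in 0.116% and 0.00913% of all windows. These are matches of letters and not measured sites.

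Cldn3 and Cldn7 were the claudins that these cells used most. Cldn7, whose protein binds EpCAM, had 8773 UMIs, or 436 CPM (427 to 445). Cldn3, a sealing claudin, had 8711 UMIs, or 433 CPM (424 to 442). The intervals overlapped, so the order of the 2 was not resolved. They ranked 277 and 279 among all genes by UMIs. Together they held 78.6% of 22246 claudin UMIs (78.1% to 79.1%).

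Cldn18 followed with 2173 UMIs, or 108 CPM (104 to 113), which is 9.77% of claudin UMIs. Cldn4, another claudin of tight epithelia, was at 72.6 CPM (68.9 to 76.4) and 6.56% of claudin UMIs. Cldn4 therefore stood far below its neighbour Cldn3. Cldn2, the channel-forming claudin, was at 30.2 CPM (27.9 to 32.7) and 2.73%. Cldn23 was lowest, at 7.70 CPM (6.54 to 9.02) and 0.697%.

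The 6 claudins held 98.4% of claudin UMIs. Of the 26 other claudin rows, 17 had no UMI in any of the 1892 cells, which by the limit of 3 counts leaves room for a UMI in 0.159% of cells. That limits cells with a UMI and not cells that express the gene at a low level. Cldn5, the claudin of blood vessel endothelium, was among these 17. Another 5 had 1 to 9 UMIs. The other 4 were Cldn12 with 245 UMIs (12.2 CPM), Cldn8 with 75 (3.73 CPM), Cldn34c1 with 20 (0.994 CPM) and Cldn10 with 11 (0.547 CPM). Cldn12 was thus above Cldn23 (10.7 to 13.8 CPM against 6.54 to 9.02).

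Of the 3 genes that are not claudins, Tjp1 was highest at 177 CPM (171 to 183). F11r was at 74.0 CPM (70.3 to 77.9), which overlapped the interval of Cldn4. Ocln was at 16.6 CPM (14.9 to 18.5), below Cldn2 and above Cldn12. The order was therefore Cldn7 and Cldn3, Tjp1, Cldn18, F11r and Cldn4, Cldn2, Ocln and Cldn23, and only the 2 named pairs had intervals that overlapped.

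**Figure D1:**
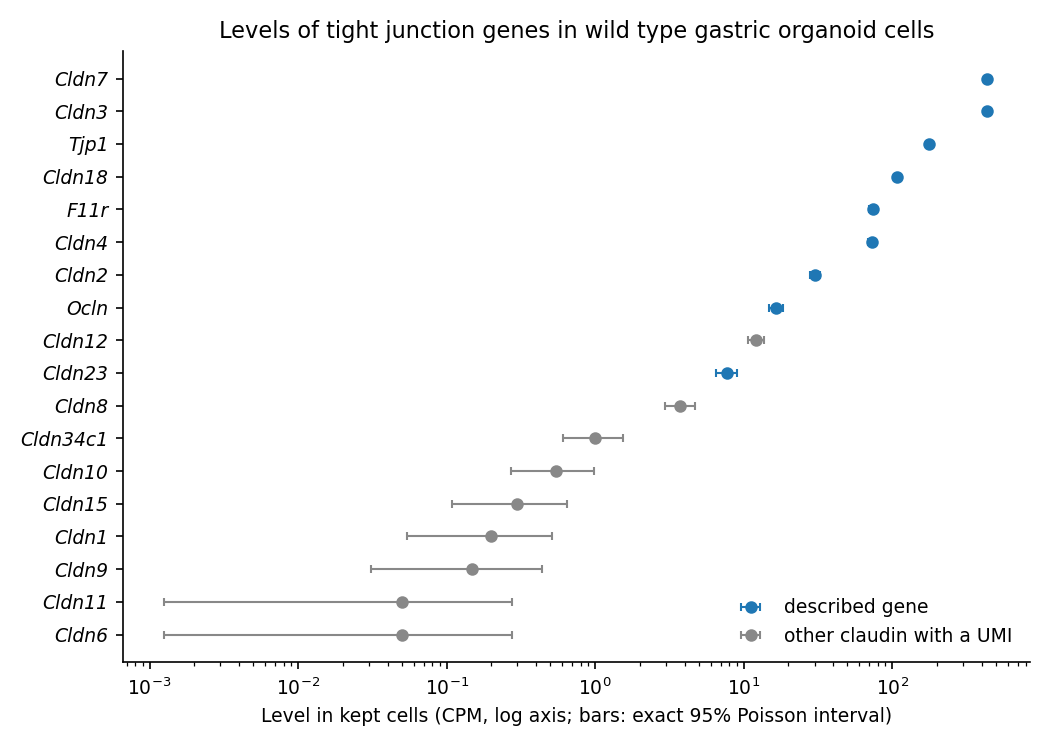
Level of each of the 9 genes (blue) and of the 9 other claudins with a UMI (grey) in 1892 cells, in CPM on a log axis, with exact Poisson intervals as bars. Cldn7 (436 CPM) and Cldn3 (433 CPM) lie to the right of all others, and the grey points other than Cldn12 lie below 4 CPM.

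Cells with a UMI followed the same order. Cldn3 had a UMI in 91.0% of cells (89.6% to 92.2%) and Cldn7 in 90.7% (89.3% to 92.0%). Tjp1 had one in 67.2%, Cldn18 in 54.6%, F11r in 47.4%, Cldn4 in 44.4%, Cldn2 in 20.7%, Ocln in 15.6% and Cldn23 in 7.35%. The library holds no cell type that should lack these genes, so the share that free RNA alone would give was not measured. To compare cells at equal depth, each cell was thinned to 3000 UMIs, which kept 1835 cells and left out 57. Cldn3 was then seen in 69.7% of cells (67.5% to 71.8%), Cldn7 in 66.3%, Tjp1 in 34.8%, Cldn18 in 24.9%, F11r in 19.4%, Cldn4 in 19.2%, Cldn2 in 7.90%, Ocln in 5.07% and Cldn23 in 2.13%.

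Most cells showed Cldn3, Cldn7 or both. At 3000 UMIs, 47.2% of cells had both, 22.5% Cldn3 without Cldn7, 19.1% Cldn7 without Cldn3, and 11.2% neither. A share of 46.2% with both follows if the genes are detected independently, so the 2 major claudins were found together about as often as their own shares give. The median cell had 2 of the 6 claudins, 5.83% of cells had none and 0.163% had 5. At the deposited depth the median was 3, and 22 cells (1.16%) had no UMI of the 6. The most common set at 3000 UMIs was Cldn3 with Cldn7 alone, in 25.8% of cells, followed by Cldn3 alone in 12.8%, Cldn7 alone in 10.4%, and Cldn3, Cldn7 and Cldn18 in 8.34%.

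The spread between cells was measured by the Fano factor, the variance of UMIs over their mean at 3000 UMIs, which is 1 when cells differ by counting error alone. Cldn3 was at 1.43 and Cldn7 at 1.42, against medians of 1.23 and 1.20 for genes within 1.5 times of their means. Cldn18 was at 1.34, above 96.2% of 838 genes of like mean, whose median was 1.06, but it was 1.16 without 1 cell of cluster 2 that had the most Cldn18 UMIs after thinning (11). Tjp1 was at 1.26 (like genes 1.08), Cldn4 at 1.19 (1.05) and Cldn2 at 1.11 (1.02). Multiplexing tags are oligonucleotides that label cells of a suspension before pooling. In cells with CMO301 and with CMO302 as highest tag, the factor was 1.004 and 1.285 for Cldn2, 1.13 and 1.58 for Cldn18, and 1.56 and 1.25 for Cldn7, and these gaps were not tested. Cldn2 thus did not exceed the median of like genes (1.02, over both tags) in cells with CMO301. F11r (1.02), Ocln (0.990) and Cldn23 (0.979) did not exceed the medians of like genes. Of these 3, F11r had 1489 UMIs, while Ocln and Cldn23 had 334 and 155.

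Cldn18 had a long tail. At the deposited depth 15 cells had 10 or more Cldn18 UMIs, and 9 of these (60.0%) were in cluster 7, which held 3.28% of cells. The highest cell had 39 UMIs, was also the deepest cell of the library, and lay in cluster 7. It held 1.79% of all Cldn18 UMIs. Of the 78 cells with 5 or more, 20 (25.6%) were in cluster 7. Cluster 7 was also the deepest cluster, and at 3000 UMIs per cell its highest cell had 4 Cldn18 UMIs, against 11 in cluster 2.

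Cells were grouped into 7 clusters from variable genes that included none of the 9 genes, no other claudin and no gene of the junction lists below. In order of size, clusters 1 to 7 comprised 500, 384, 330, 293, 230, 93 and 62 cells. The clusters stay unnamed and are described by their leading genes: Aox3, Scgb3a1 and Cbr2 in cluster 1, Ly6m, Sprr1a and Cnfn in cluster 2, Mgarp, Mt1 and 2610528A11Rik in cluster 3, Cxcl2, Cxcl5 and Mgat4c in cluster 4, Psca, Prss22 and 2210011C24Rik in cluster 5, Aspm, Knl1 and Dlgap5 in cluster 6, and Cyba, Reg3g and Gm3776 in cluster 7. Cluster 7 stood apart from the rest. A Y-linked UMI was found in 53.2% of its cells against 0.929% of the others, and an Xist UMI in 27.4% against 78.4%. Its median depth was 14365.5 UMIs, against 5949 in cluster 3, the shallowest. Results that rest on cluster 7 are therefore given with and without it. Clusters differ from each other by construction, so their levels are a description.

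Between the highest and the lowest cluster, 3 of the 6 genes with at least 1000 UMIs differed by 2-fold or more (Cldn3, Cldn18 and Tjp1). Cldn4 lay just under that mark at 1.98. It was past it at resolution 1.0 (2.75), with another seed (2.04), without called doublets (2.05) and in CMO301 cells (2.57). It was below it at resolution 0.3 (1.27), with 30 neighbours (1.59), with 3000 variable genes (1.73) and with thinned counts (1.655). In CMO302 cells the Cldn4 ratio was 1.44, and without cluster 7 it was 1.35. Of 1952 genes with as many UMIs that were not used in the clustering, 26.4% differed by 2-fold or more, and of all 2174 genes with as many UMIs 32.8%. The median ratio was 2.83 over the 6 genes and 1.67 over the 1952. Without cluster 7 only Tjp1 remained past 2-fold, 14.8% of the other genes did so, and the medians were 1.51 and 1.52. Cluster 7 thus carried the wide range of Cldn3 and Cldn18.

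Cldn3 was at 422 CPM in cluster 1, 461 in cluster 2, 475 in cluster 3, 446 in cluster 4, 525 in cluster 5, 379 in cluster 6 and 95.3 in cluster 7. The first 6 clusters lay within 1.39 times of each other (1.24 to 1.55), and cluster 7 lay far below them with no overlap of intervals (77.3 to 116 against 347 to 414 in cluster 6). Cluster 7 was at 0.211 times the level of the other clusters together (0.171 to 0.258), which were at 451 CPM. At resolution 0.3 and with 30 neighbours, where these cells fell into larger clusters of 150 and 179 cells, the ratio was 0.567 and 0.556, short of 2-fold. Of the 1952 genes, 3.79% were at least 2-fold lower in cluster 7, and 0.307% at least 4-fold lower. The 4-fold mark was not among the planned ones, and it is given for Cldn3 only. At 3000 UMIs per cell, 80.6% of cluster 7 cells had no Cldn3 UMI and none had more than 2, while 28.5% of other cells had none and the highest had 9.

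Cldn18 went the other way. It was at 79.9 CPM in cluster 1, 119 in cluster 2, 73.6 in cluster 3, 99.6 in cluster 4, 109 in cluster 5, 100.3 in cluster 6 and 299 in cluster 7. Cluster 7 was at 3.05 times the level of the others together (2.70 to 3.45), which were at 97.8 CPM, and 3.12% of the 1952 genes were at least 2-fold higher there. Without the highest cell the ratio was 2.79 (2.45 to 3.18). In the larger clusters at resolution 0.3 and with 30 neighbours it was 1.95 and 1.88, short of 2-fold. Cells with a Cldn18 UMI at 3000 UMIs were 46.8% in cluster 7 (34.0% to 59.9%) and between 20.6% and 28.7% in the others.

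For Cldn3 and Cldn18, the direction of the difference in cluster 7 was the same in both sets of cells that the deposited multiplexing tags mark. The Cldn3 ratio was 0.232 (0.179 to 0.296) in cells with CMO301 as highest tag, 36 of them in cluster 7, and 0.180 (0.123 to 0.254) in cells with CMO302, 26 of them in cluster 7. The Cldn18 ratio was 3.25 and 2.77. Pit cell markers, summed, were at 5140 CPM in cluster 7 and between 97.8 and 271 CPM in the others. All 4 pit markers were highest there. Of the 3 mucous neck markers, Gkn3 (314 CPM) and Tff2 (68.8 CPM) were highest in cluster 7, while Muc6 had no UMI there. Of the 4 chief cell markers only Pgc (53.1 CPM) was detected in cluster 7, and Cblif, Pga5 and Bhlha15 had no UMI there. Proliferation markers were at 1016 CPM, against 1828 in cluster 6 and at most 146 elsewhere. Their part in the claudin levels, and that of the origin of cluster 7, was not tested.

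**Figure D2:**
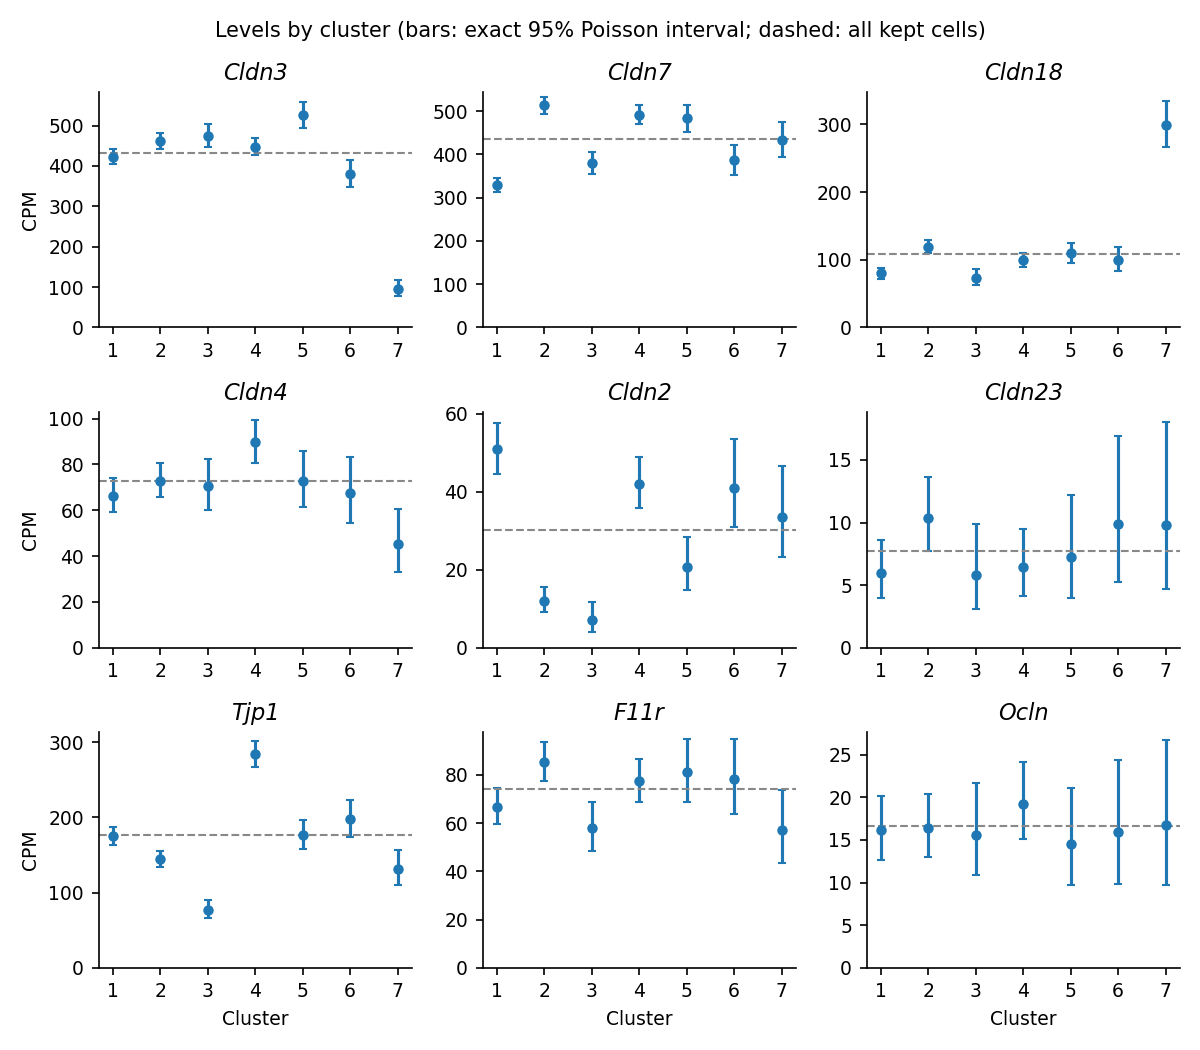
Level of each gene in the 7 clusters, in CPM from 0, with exact Poisson intervals as bars and the level over all cells as a dashed line. Cluster 7 is lowest for Cldn3 (95.3 CPM) and highest for Cldn18 (299 CPM), Cldn2 is low in clusters 2, 3 and 5, and Tjp1 peaks in cluster 4 (284 CPM).

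Cldn7 differed little. It was lowest in cluster 1 at 330 CPM (314 to 347) and highest in cluster 2 at 513 CPM (494 to 534), a ratio of 1.56 (1.46 to 1.66). Clusters 4 and 5 (492 and 483 CPM) were near cluster 2, whereas clusters 3 and 6 lay lower (379 and 386 CPM). Cluster 7 was at 433 CPM, 0.994 times the others (0.901 to 1.09). Cldn7 was thus the major claudin of cluster 7, where Cldn3 was low.

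Cldn4 was at 45.2 CPM in cluster 7 (33.1 to 60.3), 0.611 times the others (0.445 to 0.819), a smaller difference than that of its neighbour Cldn3, whose interval lay below. By tag the Cldn4 ratio was 0.501 (0.315 to 0.757) with CMO301 and 0.785 (0.494 to 1.19) with CMO302, where the interval held 1. In the other 6 clusters its lowest level was 66.3 CPM (cluster 1) and its highest 89.6 CPM (cluster 4). Cldn23 had 155 UMIs in all, and its highest cluster, at 10.4 CPM, was not set apart from its lowest, at 5.80 CPM (ratio 1.79, 0.962 to 3.59). That ratio was 3.74 at resolution 1.0, 4.93 with thinned counts and 3.97 in CMO302 cells. Resolution 1.0 gave 12 clusters, and thinning left 39 cells with a Cldn23 UMI. The Cldn23 ratio was 1.65 at resolution 0.3, 1.70 with 30 neighbours, 1.81 with another seed and 1.85 without called doublets. With 3000 variable genes it was 2.25, and in CMO301 cells 2.13.

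The make-up of claudin transcripts follows from these levels. Cldn3 and Cldn7 held 43.2% and 33.7% of claudin UMIs in cluster 1, 38.3% and 42.7% in cluster 2, 46.5% and 37.2% in cluster 3, 37.1% and 41.0% in cluster 4, 42.5% and 39.1% in cluster 5, and 37.7% and 38.4% in cluster 6. In cluster 7 Cldn3 held 10.3% (8.42% to 12.4%), Cldn7 46.8% and Cldn18 32.2% (29.3% to 35.3%). The 2 leading claudins were therefore Cldn3 and Cldn7 in clusters 1 to 6, and Cldn7 and Cldn18 in cluster 7. The summed claudin level varied less. Its lowest value was 927 CPM (cluster 7) and its highest 1235 CPM (cluster 5).

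**Figure D3:**
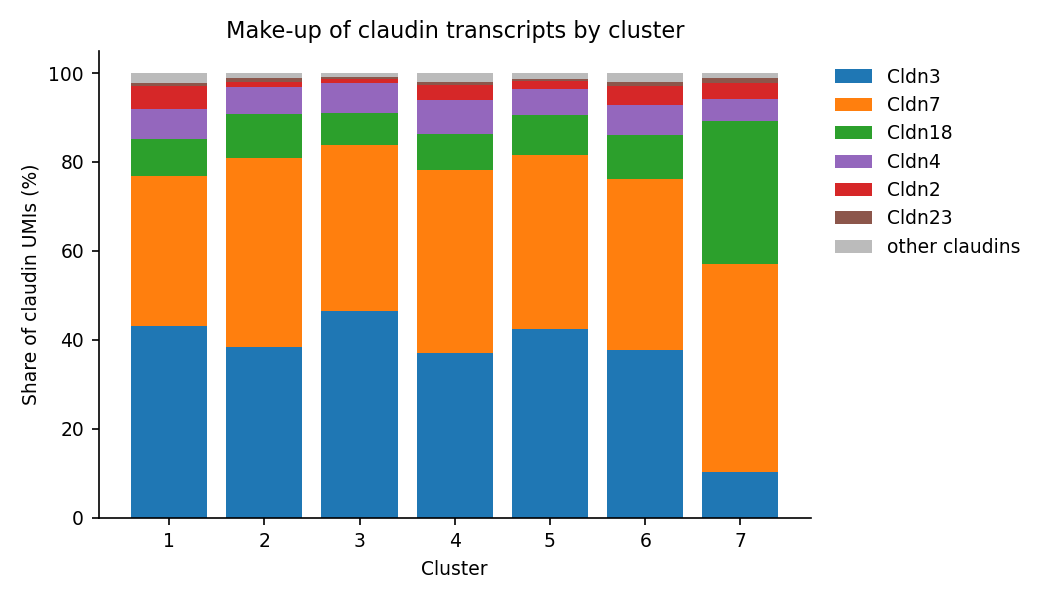
Share of claudin UMIs held by each claudin in the 7 clusters, in percent, as stacked bars. Cldn3 (blue) takes 37.1% to 46.5% in clusters 1 to 6 and 10.3% in cluster 7, where Cldn18 (green) takes 32.2%.

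**Figure D4:**
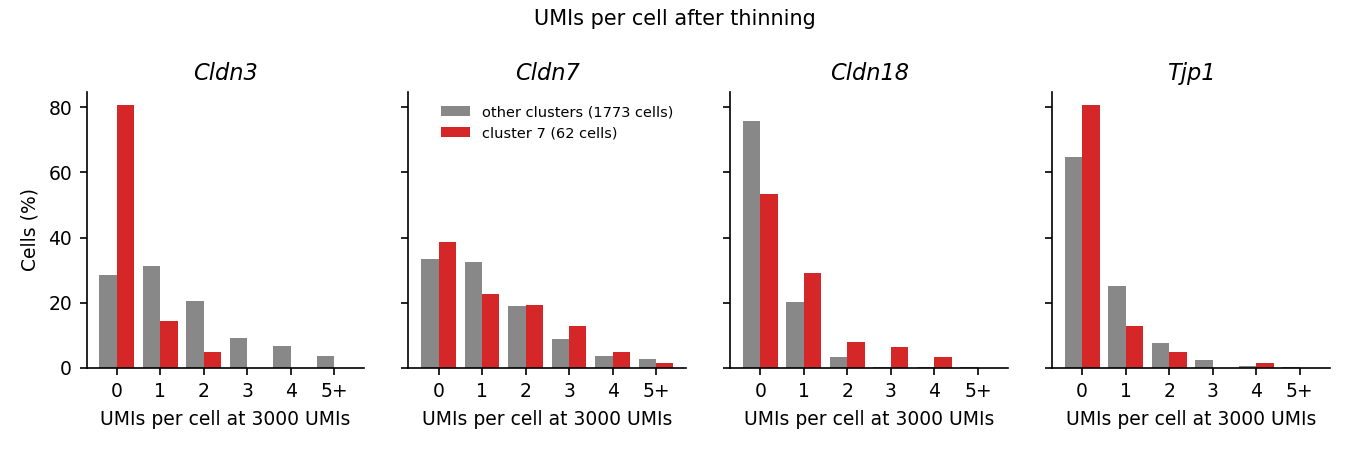
Percent of cells with 0 to 5 or more UMIs of Cldn3, Cldn7, Cldn18 and Tjp1 after thinning to 3000 UMIs, in cluster 7 (red, 62 cells) and the other clusters (grey, 1773 cells). No Cldn3 UMI was seen in 80.6% of cluster 7 cells and 28.5% of other cells, and no Cldn7 UMI in 38.7% and 33.5%.

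Cldn2 showed the widest range among clusters 1 to 6, though with 608 UMIs it was under the minimum of the count above. It was at 50.9 CPM in cluster 1 (44.6 to 57.7), 42.1 in cluster 4, 41.1 in cluster 6 and 33.4 in cluster 7, against 20.8 in cluster 5, 12.0 in cluster 2 and 7.13 in cluster 3 (4.08 to 11.6). Clusters 1, 4 and 6 were above clusters 2, 3 and 5 with no overlap of intervals. The ratio of cluster 1 to cluster 3 was 7.13 (4.30 to 12.7). At equal depth 13.5% of cluster 1 cells had a Cldn2 UMI (10.6% to 16.8%) and 2.29% of cluster 3 cells (0.925% to 4.66%).

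Tjp1, the scaffold gene, was highest in cluster 4, at 284 CPM (267 to 301), and lowest in cluster 3, at 77.1 CPM (66.1 to 89.5), a ratio of 3.68 (3.13 to 4.34). The other clusters lay between, with cluster 7 (132 CPM) at their lower and cluster 6 (198 CPM) at their upper end. At 3000 UMIs, 54.2% of cluster 4 cells and 17.6% of cluster 3 cells had a Tjp1 UMI. Clusters 3 and 4 also differed in depth, with medians of 5949 and 11699 UMIs. The ratio was 4.17 with cells thinned to 3000 UMIs, which does not remove a link between depth and level. From the shallowest to the deepest of 4 equal groups of cells, Tjp1 was at 130, 186, 164 and 191 CPM. The part of depth in the ratio was not tested. With another seed of the clustering the ratio was 2.56, and at resolution 0.3 it was 1.88.

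F11r was lowest in clusters 7 and 3, at 57.0 CPM (43.3 to 73.7) and 58.0 CPM. It was highest in cluster 2 at 85.1 CPM (77.2 to 93.6), a ratio of 1.49, and its ratio without cluster 7 was 1.47 (1.20 to 1.80). Ocln was lowest in cluster 5 (14.6 CPM) and highest in cluster 4 (19.2 CPM), and the interval of that ratio held 1 (0.846 to 2.12). Ocln had 334 UMIs in all, so a difference between these clusters was not resolved. The ratio was 1.32, and it was 2.88 at resolution 1.0, 2.06 with thinned counts, 2.40 in CMO301 cells and 2.96 in CMO302 cells. It was 1.07 at resolution 0.3 and 1.26 without called doublets. With 3000 variable genes it was 1.453, with 30 neighbours 1.445 and with another seed 1.456.

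Pairs of the 9 genes were compared across cells. Of 36 pairs, none had a Pearson correlation of 0.1 or more in size across 1835 cells at 3000 UMIs, all of 1 library. The highest was that of the neighbours Cldn3 and Cldn4 (0.0880, and 0.0772 as a mean within clusters), and the lowest that of Cldn2 and Cldn3 (-0.0595). At 5000 UMIs per cell Cldn3 and Cldn4 reached 0.133. Such weak values in sparse counts are no finding, and they do not show that the genes are unrelated, since counting error is most of the variance at this depth. Among 2174 genes with at least 1000 UMIs, the gene most like Cldn3 across cells was Chchd2, a mitochondrial regulator, with r of 0.22, and no gene reached 0.2 with Cldn4, Cldn7, Cldn18, Tjp1 or F11r.

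Levels were also compared by proliferation. Cells with a UMI of Mki67 or Top2a at 3000 UMIs (257) were set against those without (1578). None of the 6 genes with at least 1000 UMIs differed by 1.5-fold, against 3.33% of the 1952 other genes, so the count is near the background. The intervals of Cldn3 and Tjp1 excluded 1. Cldn3 was at 418 CPM with and 488 CPM without such a UMI, a ratio of 0.855 (0.759 to 0.961). Leaving out cluster 7 gave 0.925 (0.820 to 1.04). Tjp1 was at 206 and 155 CPM, a ratio of 1.33 (1.12 to 1.58), but it was 0.914 (0.774 to 1.07) when cells were divided by cell cycle scores. The intervals of the other 7 genes held 1.

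Other genes of the junction were measured from a list of 45 genes, of which 42 had a UMI. Of 10 further membrane proteins, 9 were detected, led by Cxadr, an adhesion protein and virus receptor, at 157 CPM, and Crb3, a polarity protein, at 73.2 CPM. Ildr2 had no UMI. The claudin-7 partner Epcam was at 683 CPM. All 19 scaffold and polarity genes were detected. The highest were Ybx3, a factor that binds ZO-1, at 309 CPM, and Cgnl1, which encodes paracingulin, with 1006 UMIs, so Tjp1 (177 CPM) was above all scaffold genes on the list except Ybx3.

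Of 10 transcription factors, Elf3 (94.2 CPM) and Ehf (80.3 CPM), both epithelial factors, were highest. Of the 4 repressors of junction genes on the list, Snai2 and Zeb1 had no UMI. The others, named after their values were seen, were Snai1 with 5 UMIs and Zeb2 with 1 UMI. Low expression of any of them was not resolved at this depth. All 4 genes of surface proteases and their inhibitors were detected, led by the inhibitor genes Spint2 (316 CPM) and Spint1 (65.6 CPM).

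**Figure D5:**
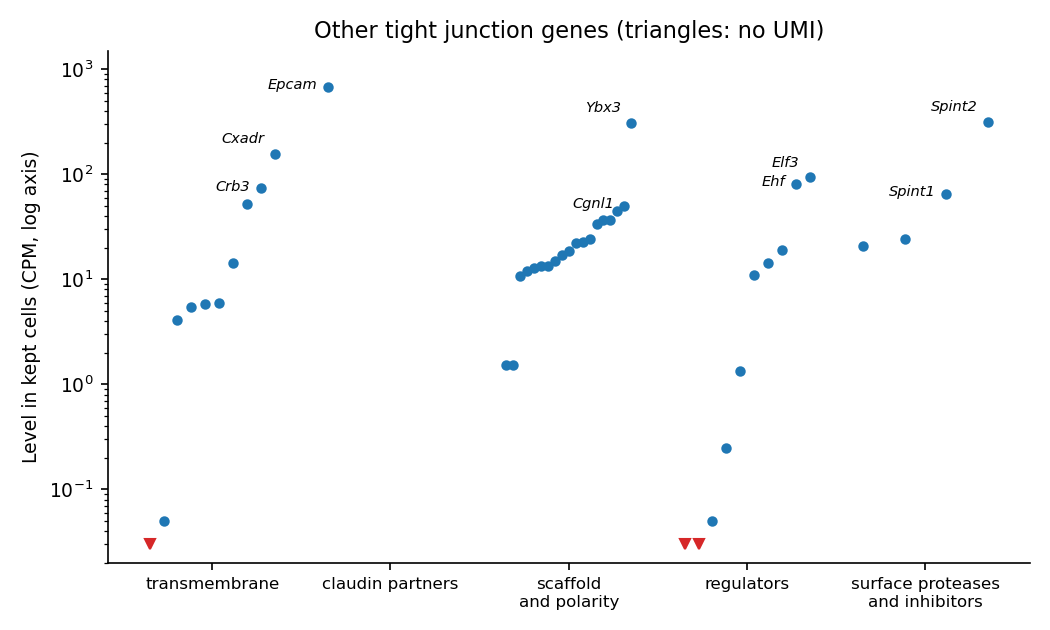
Level of other junction genes in 1892 cells by list, in CPM on a log axis, with up to 2 of the highest of each list named and genes without a UMI as triangles at the foot. Epcam (683 CPM), Spint2 (316 CPM) and Ybx3 (309 CPM) are the highest, and 3 genes have no UMI.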

How the data were processed

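The deposited matrix holds UMI counts that the authors did not normalize, written by Cell Ranger 6.1.2, per the file headers. The genome build was GRCm38/mm10, per the submitters' processing notes. Strand handling and annotation are not given in the sources used here, and Cldn3 shares its last 40 bases with an antisense gene, Wbscr25 (59 UMIs). The 12 tag rows were left out of gene totals. CPM, shares and ratios were computed from the counts. Intervals are exact (Poisson, Clopper-Pearson, conditional binomial). Scrublet marked 12 cells (0.634%) as doublets, and these were kept. Clusters came from scanpy 1.11.5 and leidenalg 0.10.2 (2000 variable genes, 30 components, 15 neighbours, resolution 0.6, seed 0), numbered by size. Named were the 9 genes, other claudins with at least 10 UMIs, the 2 highest and the absent genes of each list, genes with r of at least 0.2, 3 leading genes per cluster and the markers. 1 gene of a list is not reported here. The members and lists were chosen with earlier results of these data known. Coordinates are from GENCODE M21 (GRCm38), where 32235 of 32285 gene identifiers were found. Ratios and thinning were tested on simulated data. Alternatives were other cell filters, depths, tags, cluster settings and divisions by cell cycle.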

Additional observations from a re-analysis of the deposited data

Results flagged for a closer look

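Tag counts enter no gene level and were used to divide the cells by their highest tag. How far the highest tag stood above the next was not measured. In 56.1% of kept cells CMO301 had more UMIs than any other tag, and in the rest CMO302 did, although the labels describe 1 sample. In cells of CMO301 and of CMO302, Cldn3 was at 430.1 and 437 CPM, Cldn7 at 435 and 438 CPM, Cldn18 at 109 and 107 CPM, and Cldn23, the rarest of the 9 genes, at 6.45 and 9.27 CPM.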

How the results depend on the processing

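Across all alternatives, 107 values of main results and 258 of single genes were recomputed. Of these, 88 and 200 stayed within the counting interval of the value reported (counts within 1.5 times). The totals are no measure of stability. Alternatives that changed few cells, such as leaving out 12 called doublets, could hardly move a value. Of 27 shares of cells with a UMI, 18 moved, all by thinning, since such a share falls with depth. Alternatives without cluster 7 or highest cells, clusters by tag, and Spearman correlations were chosen after seeing the data. Means over cells gave 473 CPM for Cldn3, 76.4 for Cldn4, 450 for Cldn7, 101 for Cldn18 and 166 for Tjp1. Without cluster 7, Cldn3 was at 451 CPM, Cldn18 at 97.8 CPM, and Cldn3 with Cldn7 held 79.5% of claudin UMIs. Cldn23 was at 6.45 CPM with CMO301 and 9.27 CPM with CMO302. The count of genes past 2-fold between clusters, 3 in the report, was 1 at resolution 0.3 and 1 without cluster 7, and 4 where Cldn4 passed 2-fold (resolution 1.0, another seed, doublets left out, CMO301). Resolution 0.3 and 30 neighbours put the cells of cluster 7 into clusters of 150 and 179 cells, where the ratio to the rest was 0.567 and 0.556 for Cldn3, and 1.95 and 1.88 for Cldn18. With counts thinned to 3000 UMIs these ratios were 0.164 and 2.65. The Tjp1 ratio by proliferation reversed, from 1.33 to 0.914, with cell cycle scores, and the cause was not tested. Of 72 Fano factors, 11 moved: 6 by tag, that of Cldn18 without the cell of cluster 2 that was highest after thinning (1.16), and with 5000 UMIs per cell those of Cldn2 (1.21), Cldn3 (1.73), Cldn7 (1.55) and Tjp1 (1.42). At that depth, 1 pair of genes had a correlation of at least 0.1, against 0 at 3000. Depth limited Ocln and Cldn23, which had 334 and 155 UMIs. No paired analysis was possible because only 1 library was analysed.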

Other observations

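Cldn8, which has a role in sealing the distal nephron and is no gene of the list above, was highest in clusters 1 and 6, at 6.99 CPM (4.81 to 9.82) and 6.08 CPM, and at 4.88 CPM in cluster 4. Clusters 2, 3 and 5 were at 1.40 CPM (0.562 to 2.88), 1.78 CPM and 1.56 CPM, and cluster 7 held 1 UMI. Clusters 1, 4 and 6 were also those with the highest Cldn2. The ratio of cluster 1 to the other clusters was 2.56 for Cldn8 and 2.13 for Cldn2. This was noticed after the values were seen and rests on 75 Cldn8 UMIs.

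Several of the 9 genes varied with the depth of the cell. Cldn3 was at 584 CPM in the shallowest of 4 equal groups of cells (median 4871 UMIs), then at 454 and 439 CPM, and at 387 CPM in the deepest group (median 17942 UMIs). From the shallowest to the deepest group, Cldn4 was at 96.7, 69.6, 61.3 and 74.2 CPM, Cldn2 at 21.3, 32.0, 30.1 and 31.7 CPM, Tjp1 at 130, 186, 164 and 191 CPM, and Cldn7 at 474, 437, 431 and 430 CPM. The others were Cldn18 at 103, 94.8, 93.3 and 122 CPM, F11r at 67.1, 64.9, 73.5 and 79.2 CPM, Ocln at 18.5, 17.0, 14.3 and 17.2 CPM, and Cldn23 at 7.41, 6.75, 5.70 and 9.20 CPM. Cluster 7, which is low in Cldn3, had 34 of its 62 cells in the deepest group and 3 in the shallowest. Without it Cldn3 was at 587, 459, 454 and 413 CPM, and Cldn18 at 102, 92.3, 87.4 and 105 CPM. The cause was not tested.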
